A study of Homo sapiens with 10 samples.

Results

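A set of 31 genes of cholesterol synthesis, uptake, storage and export was followed in PC-3, an established line of human prostate cancer, after exposure to luteolin, gefitinib or both. The genes were chosen by name as members of the pathway, and SC5D and MSMO1 were found under the older symbols SC5DL and SC4MOL. All 31 were on the array, among 30815 gene symbols, and all 31 passed the filter on dim probes, among 21179 genes tested. Each gene was read from its brightest probe, and each of these probes was well above background on all 10 arrays. A further 21 probes of 15 of the genes served as a check.

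Cells make cholesterol from acetyl-CoA by way of mevalonate, isoprenoid diphosphates, squalene and a series of sterols. When sterols in the endoplasmic reticulum run low, SCAP carries the SREBP transcription factors to the Golgi for cleavage, and the released factors switch on most enzymes of the route, and INSIG proteins hold SCAP back when sterols are plentiful. When sterols are in excess, LXR receptors switch on exporters such as ABCA1 and the ubiquitin ligase MYLIP, which marks lipoprotein receptors for breakdown. Prostate tissue and its tumors are known to accumulate cholesterol.

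Single-color Agilent whole genome arrays measured the mRNA of 5 groups, with 2 arrays in each. One group was left untreated and taken at 0 h, and the other groups were kept for 24 h with the solvent DMSO, with 60 µM luteolin (a plant flavonoid), with 60 µM gefitinib (an inhibitor of the EGF receptor kinase) or with 60 µM of each. The labels call the arrays of a group biological replicates and name no culture or day, so the spread may be partly technical. All groups are 1 established line, and in such bulk RNA fewer cells of a kind and less RNA per cell cannot be told apart. Groups are named here as labelled. For the 6 drug arrays the scanner file is named for another treatment: files of the luteolin arrays name gefitinib, those of the gefitinib arrays name the combination, and those of the combination arrays name luteolin. Reading the arrays by file name moves each pair of values as a whole to another treatment and leaves 0 h and DMSO as they are.

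Values are log2 signal with the array's own 75th percentile taken as 0. That percentile was 1177 to 1402 signal units at 0 h, 1283 to 1350 with DMSO, 1041 to 1173 with luteolin, 628 to 651 with gefitinib and 540 to 865 with both drugs, so the gefitinib and combination arrays were dimmer. The part of brightness in the results was not tested. The median SD of the 31 genes between the 2 arrays of a group was 0.0896 at 0 h, 0.111 with DMSO, 0.0935 with luteolin, 0.148 with gefitinib and 0.347 with both drugs. The combination arrays therefore differed from each other the most. Of the epithelial markers, 4 of 4 (KRT8, KRT18, KRT19 and EPCAM) were well above background on all 10 arrays. Of the leukocyte markers, PTPRC was so on 0 arrays and CD3E, CD68 and CD14 on all 10. The prostate secretory genes KLK3 and KLK2 were so on 10 and 9 arrays. The part of other cell types in the results was not tested.

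Against DMSO more genes of the set rose than fell in each drug group, and the same was so over all genes. A gene was called when it differed at least 2-fold with a limma p under 0.05 after Benjamini-Hochberg adjustment across every probe tested. With luteolin 10 of the 31 genes rose and 1 fell, where 7.03% of all genes rose and 6.18% fell. With gefitinib 6 rose and 1 fell, where 16.5% of all genes rose and 14.1% fell, so the share that rose was near that of all genes. With both drugs 6 rose and 0 fell, where 12.1% rose and 7.5% fell. At the adjusted p alone, 15 rose and 1 fell with luteolin (13.8% and 11.7% of all genes), 17 rose and 3 fell with gefitinib (33.9% and 21.7%), and 10 rose and 4 fell with both (25.6% and 15.8%). The shares with both drugs were then near those of all genes.

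The median change of the 31 genes against DMSO was 0.75 with luteolin, 0.65 with gefitinib and 0.48 with both drugs, and the median over all genes tested was 0.08, 0.24 and 0.19. Under quantile normalization the medians of the 31 were 0.77, 0.28 and 0.29 and those of all genes 0.05, 0.07 and 0.03 in the same order, which is lower for the 2 dimmer groups. The 3 comparisons share the DMSO arrays. Over them, 16 of the 31 genes were called at least once and 15 were not. The same count was not made over all genes, so it does not set the 31 apart. MSMO1 and SREBF2 rose in all 3, and 10 genes rose in 1 comparison only. The plot of every gene on every array gives the same values relative to the DMSO mean.

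**Figure D1:**
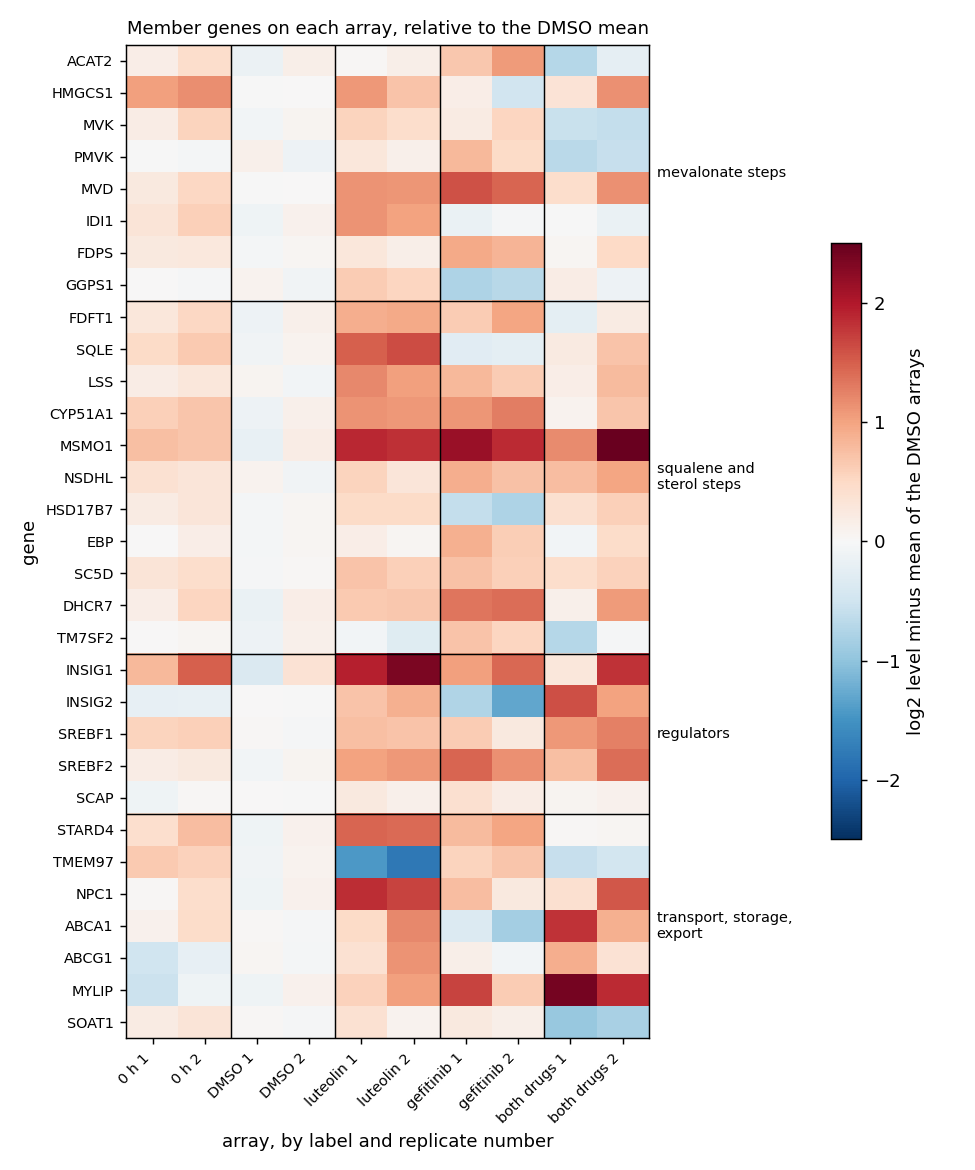
Level of each of the 31 genes (rows, by role) on each of the 10 arrays (columns), as log2 level minus the mean of the DMSO arrays (color scale). MSMO1, INSIG1 and NPC1 stand out as high with luteolin, TMEM97 as low with luteolin, and INSIG2 as low with gefitinib and high with both drugs.

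The luteolin calls depended on single arrays. Without DMSO replicate 1 only 3 genes rose and 1 fell with luteolin, and without luteolin replicate 2 only 4 rose and 1 fell. Only SQLE, STARD4 and TMEM97 stayed called with luteolin whichever of the 10 arrays was left out. With gefitinib 5 of 7 calls stayed (CYP51A1, DHCR7, MSMO1, MVD and SREBF2), and with both drugs 4 of 6 (INSIG2, MSMO1, MYLIP and SREBF1). Without combination replicate 1, the count with both drugs went from 6 rises to 10. Taken within a slide, as drug array minus DMSO array, every called change against DMSO had the same direction on each slide that held both arrays. For gefitinib only a single slide did. These are the arrays that gave the calls, so the shared direction is not a separate check.

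Of the 8 genes of the mevalonate steps, 2 rose with luteolin, 1 with gefitinib and 0 with both drugs (7.03%, 16.5% and 12.1% of all genes). MVD, which makes isopentenyl diphosphate from mevalonate diphosphate, stood at -0.92 and -0.65 at 0 h, -1.18 and -1.15 with DMSO, -0.03 and -0.06 with luteolin, 0.42 and 0.29 with gefitinib and -0.72 and -0.02 with both drugs. Both luteolin arrays and both gefitinib arrays were above every control array, and 1 combination array lay between the arrays of 0 h. The change of MVD was 1.12 (SE 0.233, limma adjusted p 0.0105) with luteolin and 1.52 (SE 0.233, limma adjusted p 0.00166) with gefitinib. With both drugs it was 0.79 (SE 0.233, limma adjusted p 0.0277), under 2-fold.

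IDI1, which turns isopentenyl diphosphate into its reactive isomer, stood at 0.97 and 1.26 at 0 h, 0.55 and 0.76 with DMSO, 1.77 and 1.66 with luteolin, 0.48 and 0.62 with gefitinib and 0.65 and 0.49 with both drugs. Only the luteolin arrays stood apart, and those of gefitinib and of both drugs lay within or beside the DMSO pair. IDI1 rose by 1.06 (SE 0.172, limma adjusted p 0.00379) with luteolin. GGPS1, which makes the geranylgeranyl chain used on small GTPases, stood at 0.35 and 0.31 at 0 h, 0.42 and 0.27 with DMSO, 0.97 and 0.89 with luteolin, -0.42 and -0.35 with gefitinib and 0.53 and 0.22 with both drugs. The luteolin arrays were the highest and the gefitinib arrays the lowest of all. GGPS1 changed by 0.58 (SE 0.163, limma adjusted p 0.0323) with luteolin and by -0.73 (SE 0.163, limma adjusted p 0.00681) with gefitinib, both under 2-fold.

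HMGCS1, the synthase that feeds the route with HMG-CoA, stood at 0.67 and 0.79 at 0 h, -0.37 and -0.36 with DMSO, 0.73 and 0.35 with luteolin, -0.21 and -0.84 with gefitinib and -0.02 and 0.78 with both drugs. The DMSO arrays were low, the luteolin arrays were back near the level of 0 h, and the combination arrays straddled the range between. Its difference from DMSO was 0.90 (SE 0.299, limma adjusted p 0.0578) with luteolin, -0.16 (SE 0.299, limma adjusted p 0.673) with gefitinib and 0.74 (SE 0.299, limma adjusted p 0.0778) with both, none past the threshold. The second probe of HMGCS1 gave 0.48, 0.77 and 1.41 in the same order, so that with gefitinib its probes had opposite signs.

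The other mevalonate genes were lower with both drugs than with gefitinib, each past the limma adjusted p, at -1.33 for ACAT2, -1.27 for PMVK, -0.96 for MVK and -0.63 for FDPS. ACAT2, the thiolase of the first step, stood at 2.60 and 2.87 at 0 h, 2.28 and 2.57 with DMSO, 2.46 and 2.57 with luteolin, 3.1 and 3.49 with gefitinib and 1.72 and 2.20 with both drugs. PMVK, a kinase of mevalonate phosphate, stood at 2.09 and 2.05 at 0 h, 2.22 and 1.97 with DMSO, 2.37 and 2.23 with luteolin, 2.90 and 2.58 with gefitinib and 1.42 and 1.52 with both drugs. For both, the gefitinib arrays were the highest of all and the combination arrays the lowest. ACAT2 changed by 0.87 (SE 0.228, limma adjusted p 0.0133) with gefitinib, and PMVK by 0.65 (SE 0.175, limma adjusted p 0.0149) with gefitinib and -0.63 (SE 0.175, limma adjusted p 0.0232) with both drugs.

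MVK, the mevalonate kinase, stood at 3.12 and 3.50 at 0 h, 2.86 and 3.01 with DMSO, 3.50 and 3.39 with luteolin, 3.15 and 3.48 with gefitinib and 2.38 and 2.33 with both drugs. The combination arrays were the lowest, and the other drug arrays overlapped those of 0 h. MVK changed by -0.58 (SE 0.19, limma adjusted p 0.04) with both drugs. FDPS, which builds farnesyl diphosphate, stood at 4.31 and 4.33 at 0 h, 4.02 and 4.11 with DMSO, 4.35 and 4.21 with luteolin, 5.02 and 4.92 with gefitinib and 4.12 and 4.56 with both drugs. Its gefitinib arrays were the highest, with a change of 0.90 (SE 0.18, limma adjusted p 0.00451).

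Of the 11 genes from squalene to cholesterol, 4 rose with luteolin, 3 with gefitinib and 1 with both drugs (7.03%, 16.5% and 12.1% of all genes). At least 2-fold, 0 fell (6.18%, 14.1% and 7.5% of all genes). MSMO1, which takes the methyl groups off the sterol ring, stood at -1.61 and -1.66 at 0 h, -2.55 and -2.17 with DMSO, -0.47 and -0.53 with luteolin, -0.19 and -0.50 with gefitinib and -1.17 and 0.10 with both drugs. All 6 drug arrays were above all 4 control arrays, while the combination arrays lay far from each other. Its change was 1.86 (SE 0.361, limma adjusted p 0.00813) with luteolin, 2.01 (SE 0.361, limma adjusted p 0.00298) with gefitinib and 1.82 (SE 0.361, limma adjusted p 0.00687) with both, and the gefitinib value is a 4.04-fold rise.

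SQLE, the epoxidase that is a slow step of the route, stood at 3.02 and 3.19 at 0 h, 2.45 and 2.61 with DMSO, 4.02 and 4.16 with luteolin, 2.25 and 2.29 with gefitinib and 2.76 and 3.25 with both drugs. Luteolin gave the highest arrays and gefitinib the lowest. SQLE rose by 1.55 (SE 0.194, limma adjusted p 0.00144) with luteolin, a 2.94-fold rise, while the difference with gefitinib was -0.26 (SE 0.194, limma adjusted p 0.282), which did not pass. FDFT1, which joins farnesyl units to squalene, stood at 1.00 and 1.24 at 0 h, 0.59 and 0.84 with DMSO, 1.63 and 1.66 with luteolin, 1.35 and 1.70 with gefitinib and 0.46 and 0.93 with both drugs. Both single drugs were above every control array and the combination arrays straddled those of DMSO. FDFT1 changed by 0.93 (SE 0.214, limma adjusted p 0.0156) with luteolin and 0.81 (SE 0.214, limma adjusted p 0.0135) with gefitinib, both under 2-fold.

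LSS, which folds squalene epoxide into lanosterol, stood at 2.39 and 2.49 at 0 h, 2.26 and 2.15 with DMSO, 3.40 and 3.23 with luteolin, 3.01 and 2.84 with gefitinib and 2.38 and 2.99 with both drugs. CYP51A1, the lanosterol demethylase, stood at 2.67 and 2.76 at 0 h, 1.94 and 2.19 with DMSO, 3.19 and 3.15 with luteolin, 3.17 and 3.36 with gefitinib and 2.15 and 2.76 with both drugs. For both genes all luteolin and gefitinib arrays were above the controls, and the lower combination array was at a control level. LSS rose by 1.11 (SE 0.214, limma adjusted p 0.00783) with luteolin and changed by 0.72 (SE 0.214, limma adjusted p 0.0214) with gefitinib. A pair of dimmer LSS probes gave larger changes of 2.65 to 2.73 with luteolin and 2.78 with gefitinib, in the same direction, and 3.28 and 3.29 with both drugs, where the probe used gave 0.48 (SE 0.214, limma adjusted p 0.104). CYP51A1 rose by 1.10 (SE 0.217, limma adjusted p 0.0085) with luteolin and 1.20 (SE 0.217, limma adjusted p 0.00312) with gefitinib.

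DHCR7, the reductase of the last step, stood at 4.15 and 4.53 at 0 h, 3.83 and 4.15 with DMSO, 4.65 and 4.66 with luteolin, 5.32 and 5.40 with gefitinib and 4.12 and 5.05 with both drugs. The gefitinib arrays were the highest, the luteolin arrays lay between the 2 combination arrays, and the lower of these lay among the DMSO values. DHCR7 rose by 1.37 (SE 0.292, limma adjusted p 0.00571) with gefitinib. SC5D, the desaturase that makes its substrate, stood at 1.33 and 1.44 at 0 h, 0.98 and 1.04 with DMSO, 1.72 and 1.60 with luteolin, 1.74 and 1.61 with gefitinib and 1.44 and 1.59 with both drugs. All 6 drug arrays were above the controls, with changes of 0.65 (SE 0.151, limma adjusted p 0.0158), 0.67 (SE 0.151, limma adjusted p 0.00727) and 0.51 (SE 0.151, limma adjusted p 0.029) with luteolin, gefitinib and both, under 2-fold each.

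HSD17B7, a keto reductase of the sterol ring, went the other way with gefitinib. It stood at -0.75 and -0.64 at 0 h, -1.0 and -0.90 with DMSO, -0.48 and -0.47 with luteolin, -1.55 and -1.71 with gefitinib and -0.55 and -0.34 with both drugs. The gefitinib arrays were below every other array, and the luteolin and combination arrays were above the controls. The gene has a close pseudogene that the probe may also read. HSD17B7 changed by -0.69 (SE 0.155, limma adjusted p 0.00717) with gefitinib and 0.50 (SE 0.155, limma adjusted p 0.0329) with both. The remaining NSDHL, EBP and TM7SF2, a dehydrogenase, an isomerase and a reductase of the sterol ring, were not called. Their changes against DMSO ran from -0.37 for TM7SF2 to 0.87 for NSDHL, both with both drugs. Under quantile normalization the gefitinib change of EBP went from 0.76 to -0.03 and that of TM7SF2 from 0.63 to -0.03.

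**Figure D2:**
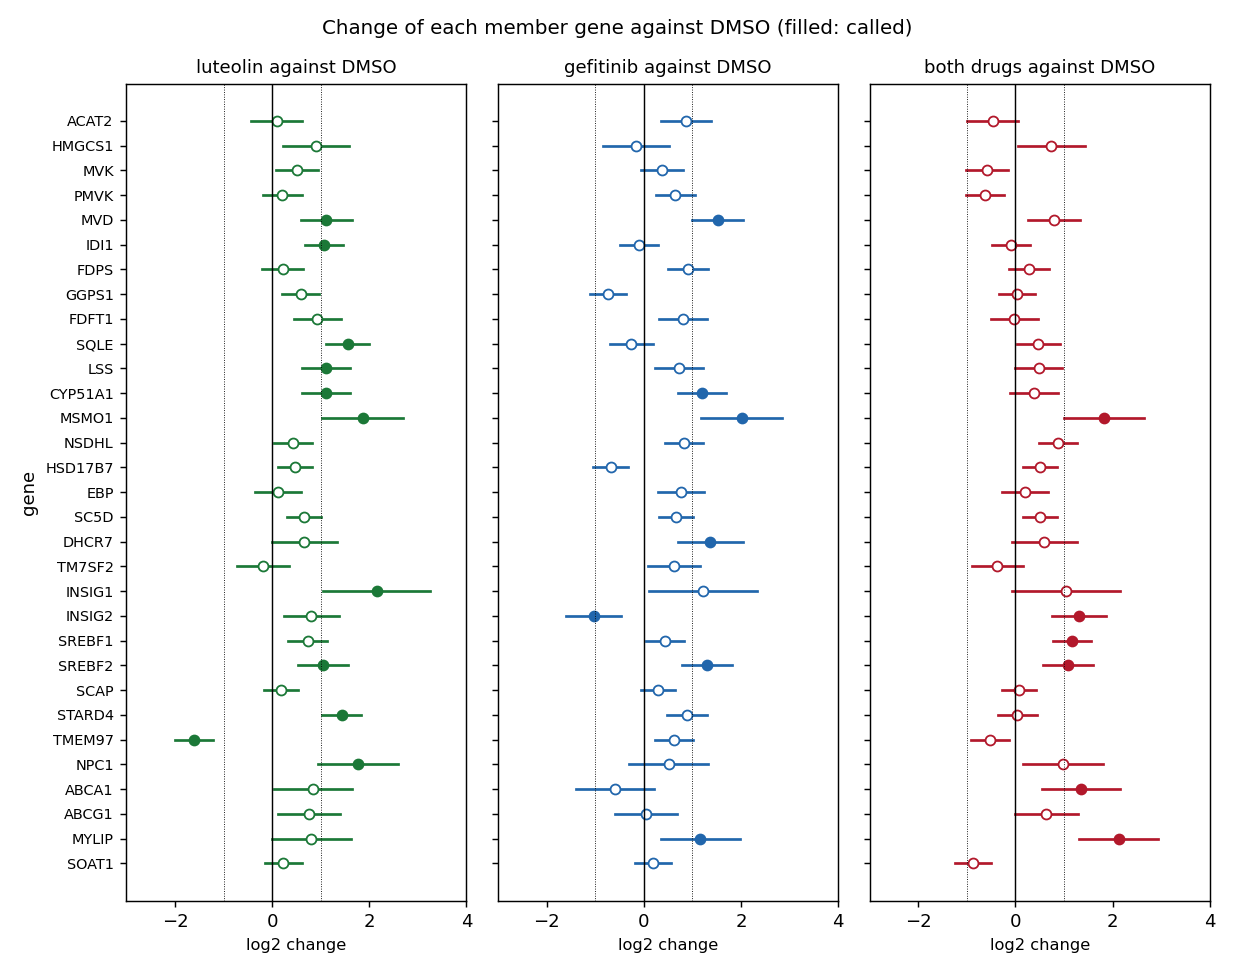
Log2 change of each gene against DMSO (points) with its 95% confidence interval from the limma fit (lines), for luteolin, gefitinib and both drugs. Filled points are called, dotted lines mark a 2-fold change, and most luteolin and gefitinib points lie right of 0.

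Of the 5 regulators, 2 rose with luteolin (7.03% of all genes), 1 rose and 1 fell with gefitinib (16.5% and 14.1%), and 3 rose with both drugs (12.1%). SREBF2, which encodes the SREBP factor of cholesterol genes, stood at -0.21 and -0.14 at 0 h, -0.46 and -0.32 with DMSO, 0.62 and 0.70 with luteolin, 1.06 and 0.76 with gefitinib and 0.37 and 1.00 with both drugs (probe at chr22:40632145-40632204 of hg18). All 6 drug arrays were above all 4 controls. SREBF2 rose by 1.05 (SE 0.224, limma adjusted p 0.0115) with luteolin, 1.30 (SE 0.224, limma adjusted p 0.00256) with gefitinib and 1.08 (SE 0.224, limma adjusted p 0.00809) with both drugs. Its second probe gave 1.41, 1.04 and 1.36.

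SREBF1, which encodes the SREBP factor of fatty acid genes and is also an LXR target, stood at 2.86 and 2.90 at 0 h, 2.34 and 2.27 with DMSO, 3.05 and 3.02 with luteolin, 2.94 and 2.56 with gefitinib and 3.39 and 3.57 with both drugs. The combination arrays were the highest and the DMSO arrays the lowest. SREBF1 rose by 1.17 (SE 0.172, limma adjusted p 0.00242) with both drugs and by 0.73 (SE 0.172, limma adjusted p 0.0172) with luteolin, and the difference with gefitinib was 0.44 (SE 0.172, limma adjusted p 0.0586), which did not pass. SCAP, the SREBP escort, did not pass in any group, with differences of 0.18, 0.30 and 0.08.

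The INSIG pair, which retains SCAP in the endoplasmic reticulum, did not move together. INSIG1, itself an SREBP target, stood at 1.02 and 1.70 at 0 h, -0.16 and 0.57 with DMSO, 2.16 and 2.55 with luteolin, 1.22 and 1.64 with gefitinib and 0.49 and 2.01 with both drugs (probe at chr7:154731004-154731063 of hg18). The luteolin arrays were the highest, the gefitinib arrays lay within the range of 0 h, and 1 combination array was below 1 DMSO array. INSIG1 rose by 2.15 (SE 0.486, limma adjusted p 0.0146) with luteolin, a 4.43-fold rise, while the differences of 1.23 (SE 0.486, limma adjusted p 0.0613) with gefitinib and 1.04 (SE 0.486, limma adjusted p 0.115) with both did not pass.

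INSIG2, a form that does not depend on SREBP, stood at -0.18 and -0.15 at 0 h, 0.04 and 0.03 with DMSO, 0.75 and 0.92 with luteolin, -0.73 and -1.28 with gefitinib and 1.65 and 1.04 with both drugs (probe spanning chr2:118581181-118582331 of hg18). Gefitinib gave the lowest arrays and both drugs the highest, and the control arrays lay between. INSIG2 fell by 1.03 (SE 0.246, limma adjusted p 0.00893) with gefitinib, rose by 1.31 (SE 0.246, limma adjusted p 0.00569) with both drugs, and changed by 0.80 (SE 0.246, limma adjusted p 0.045) with luteolin, under 2-fold. Without gefitinib replicate 2 the change with gefitinib was -0.76, under 2-fold. The second INSIG2 probe gave -0.80 with gefitinib and 0.79 with both.

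Promoters of 5 genes are shown because their genes carried the main patterns: SREBF2 and MSMO1 rose in every drug group, INSIG1 and INSIG2 are paralogs that differed, and STARD4 had the clearest departure from the sum of the drugs. They were picked after the values were seen. Each run is the 250 bases before the RefSeq start, 5′ to 3′ on the gene's strand, on GRCh38.p14, with capitals marking TCACNCCAC (a core of the sterol regulatory element), CCAAT (the NF-Y box) or CACGTG (the E-box) on either strand, so that ATTGG is CCAAT on the other strand.
SREBF2 (chr22:41832855-41833104, plus strand): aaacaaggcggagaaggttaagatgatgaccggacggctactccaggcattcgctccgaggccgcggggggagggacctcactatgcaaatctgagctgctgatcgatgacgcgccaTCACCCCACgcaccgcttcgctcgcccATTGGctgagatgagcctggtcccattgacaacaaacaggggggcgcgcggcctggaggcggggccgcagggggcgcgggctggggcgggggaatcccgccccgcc
MSMO1 (chr4:165327419-165327668, plus strand): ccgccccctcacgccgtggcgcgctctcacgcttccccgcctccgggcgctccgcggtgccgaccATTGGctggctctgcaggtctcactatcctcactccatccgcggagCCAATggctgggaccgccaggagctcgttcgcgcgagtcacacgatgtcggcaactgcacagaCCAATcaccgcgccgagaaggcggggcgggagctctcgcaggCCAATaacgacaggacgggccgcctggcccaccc
INSIG1 (chr7:155297628-155297877, plus strand): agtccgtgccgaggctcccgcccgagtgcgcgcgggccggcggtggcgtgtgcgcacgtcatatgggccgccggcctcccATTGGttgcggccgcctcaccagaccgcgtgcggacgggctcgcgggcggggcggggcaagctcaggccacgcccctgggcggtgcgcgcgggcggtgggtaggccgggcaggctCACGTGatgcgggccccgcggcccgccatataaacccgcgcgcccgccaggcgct
INSIG2 (chr2:118088221-118088470, plus strand): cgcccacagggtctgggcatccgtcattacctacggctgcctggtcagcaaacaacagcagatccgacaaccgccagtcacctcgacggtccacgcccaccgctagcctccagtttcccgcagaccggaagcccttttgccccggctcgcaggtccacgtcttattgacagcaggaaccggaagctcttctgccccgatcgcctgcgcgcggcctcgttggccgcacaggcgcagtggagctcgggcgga
STARD4 (chr5:111512536-111512785, minus strand): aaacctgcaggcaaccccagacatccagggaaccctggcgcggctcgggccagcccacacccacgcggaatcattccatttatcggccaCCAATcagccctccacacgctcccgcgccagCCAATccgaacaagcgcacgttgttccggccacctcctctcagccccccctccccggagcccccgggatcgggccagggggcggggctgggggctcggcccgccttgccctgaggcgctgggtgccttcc

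RefSeq windows, from 250 bases before to 50 after the start, were given for 27 of the 31 genes (35 windows). On both strands, CCAAT was found in 62.9% of these windows and in 34.6% of all 35116 windows of the table. GGGCGG, the GC box, was in 91.4% against 45% of all, and CACGTG in 17.1% against 7.26%. TCACNCCAC was in 1 window, that of SREBF2 (2.86% against 1.13%), and AGGTCA, a core site of nuclear receptors, in 1, that of DHCR7 (2.86% against 13.8%). In the printed runs, the MSMO1 promoter held 4 matches to CCAAT, STARD4 held 2, SREBF2 and INSIG1 held 1 each, and INSIG2 held 0. These are matches of letters in short windows and not evidence of binding.

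Of the 7 genes of transport, storage and export, 2 rose and 1 fell with luteolin (7.03% and 6.18% of all genes). With gefitinib 1 rose (16.5%), and with both drugs 2 rose (12.1%). STARD4, a cytosolic sterol carrier, stood at -1.40 and -1.05 at 0 h, -1.94 and -1.72 with DMSO, -0.38 and -0.42 with luteolin, -1.03 and -0.84 with gefitinib and -1.80 and -1.78 with both drugs (probe at chr5:110862587-110862646 of hg18). The luteolin arrays were the highest, the gefitinib arrays were above the controls, and the combination arrays lay between the DMSO arrays. STARD4 rose by 1.43 (SE 0.176, limma adjusted p 0.00137) with luteolin and, under 2-fold, by 0.89 (SE 0.176, limma adjusted p 0.0043) with gefitinib, and its difference with both drugs was 0.04 (SE 0.176, limma adjusted p 0.872).

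NPC1, which moves cholesterol out of the lysosome, stood at 1.57 and 1.99 at 0 h, 1.43 and 1.67 with DMSO, 3.39 and 3.24 with luteolin, 2.32 and 1.80 with gefitinib and 1.96 and 3.11 with both drugs. Both luteolin arrays were above all others, and 1 gefitinib and 1 combination array lay within the range of 0 h. NPC1 rose by 1.77 (SE 0.359, limma adjusted p 0.0096) with luteolin, a 3.4-fold rise. TMEM97, a membrane protein known to lower NPC1 protein, stood at 1.96 and 1.89 at 0 h, 1.23 and 1.39 with DMSO, -0.14 and -0.48 with luteolin, 1.86 and 2.0 with gefitinib and 0.73 and 0.84 with both drugs (probe at chr17:23679051-23679110 of hg18). The luteolin arrays were far below all others and the gefitinib arrays were at the level of 0 h. TMEM97 fell by 1.62 (SE 0.172, limma adjusted p 0.000898) with luteolin and changed by 0.62 (SE 0.172, limma adjusted p 0.0158) with gefitinib and -0.52 (SE 0.172, limma adjusted p 0.0409) with both. Its other probes gave -1.62 and -1.53 with luteolin and -0.025 and 0.029 with both drugs.

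ABCA1, the exporter that loads cholesterol onto apolipoproteins, stood at -3.03 and -2.68 at 0 h, -3.11 and -3.16 with DMSO, -2.66 and -1.93 with luteolin, -3.48 and -3.99 with gefitinib and -1.32 and -2.25 with both drugs (probe at chr9:106583525-106583584 of hg18). The luteolin and combination arrays were above the controls and the gefitinib arrays below them. ABCA1 rose by 1.35 (SE 0.353, limma adjusted p 0.0184) with both drugs, a call lost without combination replicate 1, where the change was 0.89, or without either DMSO array. Its difference from DMSO was 0.84 (SE 0.353, limma adjusted p 0.117) with luteolin and -0.60 (SE 0.353, limma adjusted p 0.183) with gefitinib, and neither passed. ABCG1, a partner exporter, did not pass in any group, with differences of 0.75, 0.04 and 0.64.

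MYLIP, also known as IDOL, stood at -3.06 and -2.63 at 0 h, -2.61 and -2.41 with DMSO, -1.93 and -1.48 with luteolin, -0.83 and -1.87 with gefitinib and -0.12 and -0.64 with both drugs (probe at chr6:16238808-16238867 of hg18). All 6 drug arrays were above the controls, the combination arrays the most. MYLIP rose by 2.13 (SE 0.354, limma adjusted p 0.00365) with both drugs, a 4.37-fold rise, and by 1.16 (SE 0.354, limma adjusted p 0.0239) with gefitinib. Without gefitinib replicate 1 the change with gefitinib was 0.64 and was not called, nor was it without either DMSO array. The second MYLIP probe gave 1.53 with both drugs and -0.35 with gefitinib, so the direction with gefitinib depended on the probe. Among 17 values of further probes for called changes against DMSO, that gefitinib value was the only one with the other sign. Further probes were not counted in this way for the other comparisons.

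SOAT1, which esterifies cholesterol for storage, stood at 0.15 and 0.27 at 0 h, -0.01 and -0.09 with DMSO, 0.33 and 0.03 with luteolin, 0.19 and 0.09 with gefitinib and -0.99 and -0.86 with both drugs. The combination arrays were the lowest by far. SOAT1 changed by -0.88 (SE 0.164, limma adjusted p 0.00566) with both drugs, under 2-fold, and its other probes gave -0.51 and -0.0011. The plot of single genes by array shows some of the regulators and transporters, picked by hand and not by a rule.

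**Figure D3:**
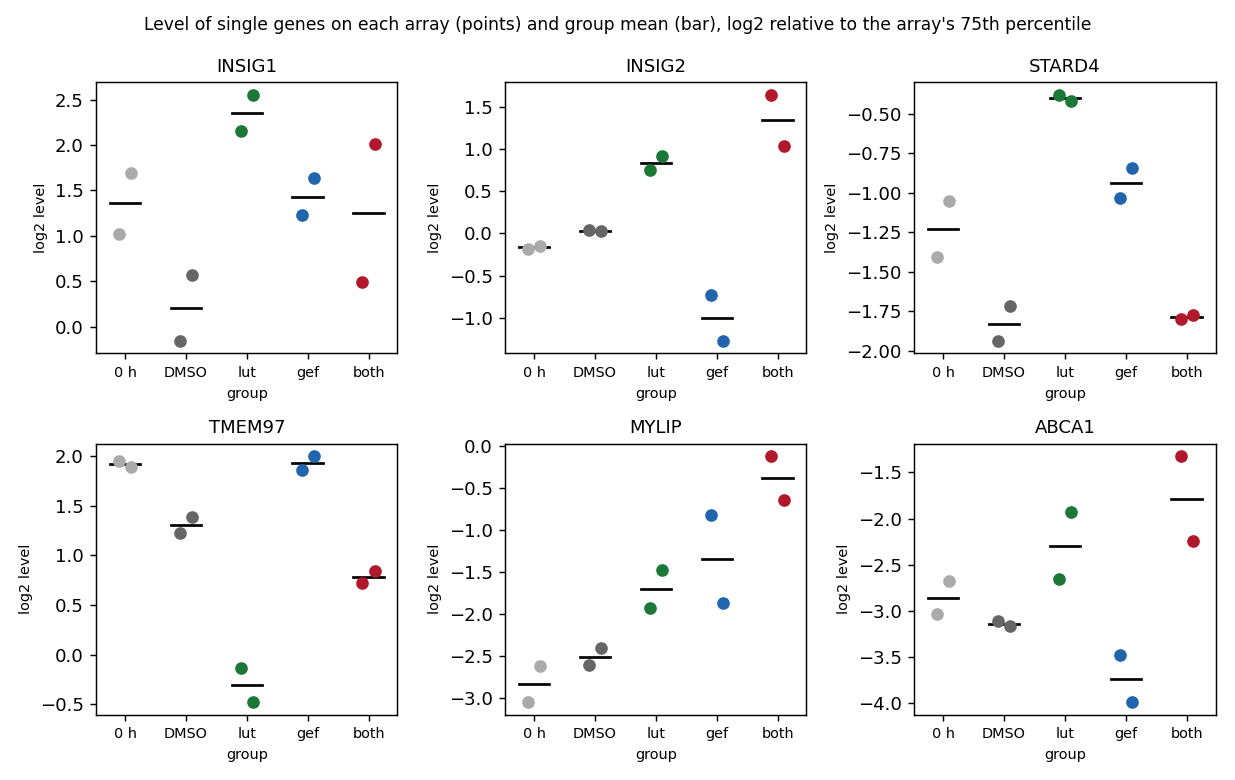
Log2 level of 6 genes, with the 75th percentile of each array as 0, on each array (points) with the mean of the pair (bar), at 0 h and after 24 h with DMSO, luteolin (lut), gefitinib (gef) or both. TMEM97 is lowest with luteolin, INSIG2 and ABCA1 are lowest with gefitinib, MYLIP is highest with both drugs, and STARD4 with both drugs lies at the DMSO level. Each panel has its own axis.

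Tested directly against each other, the single drugs differed in 9 genes. With luteolin 8 genes were higher than with gefitinib and 1 was lower, where 17.8% of all genes were higher and 19.3% lower. The higher genes were SQLE at 1.82 (SE 0.194, limma adjusted p 0.0002), INSIG2 at 1.83 (SE 0.246, limma adjusted p 0.000527), ABCA1 at 1.44 (SE 0.353, limma adjusted p 0.00831), GGPS1 at 1.32 (SE 0.163, limma adjusted p 0.000369), NPC1 at 1.26, IDI1 and HSD17B7 at 1.16 each, and HMGCS1 at 1.06. The second HMGCS1 probe gave 0.48 with luteolin and 0.77 with gefitinib against DMSO, so for HMGCS1 the order of the drugs depended on the probe. TMEM97 was lower, at -2.24 (SE 0.172, limma adjusted p 6.78e-05). MSMO1, CYP51A1, SC5D and FDFT1 were near each other, with differences of -0.16 (95% interval -0.98 to 0.67), -0.09 (-0.59 to 0.41), -0.01 (-0.36 to 0.33) and 0.12 (-0.37 to 0.61).

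Against luteolin alone, both drugs gave 2 higher genes and 5 lower (11.4% and 9.42% of all genes). MYLIP, at 1.32 (SE 0.354, limma adjusted p 0.0193), and TMEM97, at 1.09 (SE 0.172, limma adjusted p 0.00236), were higher. The second MYLIP probe lay closer, at 1.00 with luteolin and 1.53 with both against DMSO. STARD4 was lower at -1.39 (SE 0.176, limma adjusted p 0.00102), and IDI1, SOAT1, MVK and SQLE were lower at -1.15, -1.11, -1.09 and -1.09. The other SOAT1 probes gave -0.18 and 0.23 with luteolin and -0.51 and -0.0011 with both, against DMSO. With the median over a gene's probes 1 gene was higher and 4 were lower. Without combination replicate 2 the lower genes numbered 9. Against gefitinib alone, both drugs gave 3 higher genes and 4 lower (17.1% and 9.66%). INSIG2 was higher by 2.34 (SE 0.246, limma adjusted p 0.000225), a 5.07-fold difference, ABCA1 by 1.95 (SE 0.353, limma adjusted p 0.00268) and HSD17B7 by 1.19. ACAT2, PMVK, TMEM97 and SOAT1 were lower at -1.33, -1.27, -1.15 and -1.07. Here the median over a gene's probes gave 4 higher and 3 lower. Without combination replicate 2 the split was 3 and 9, and without gefitinib replicate 1 it was 5 and 6.

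The change with both drugs was then set against the sum of the changes with either. For 17 of the 31 genes the combination fell below that sum and for 2 it lay above, at the adjusted p alone, where 15.8% of all genes fell below and 17.8% above. The median departure was -0.84 over the 31 genes and -0.17 over all genes tested, and under quantile normalization it was -0.84 and -0.12. By role, 6 of 8 mevalonate genes, 7 of 11 sterol genes, 2 of 5 regulators and 2 of 7 transport and storage genes were below the sum.

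STARD4 was the clearest: the single changes add to 2.32, the combination gave 0.04, and the departure was -2.28 (SE 0.249, limma adjusted p 0.000611). INSIG1 departed by -2.33 (SE 0.687, limma adjusted p 0.0315) (sum 3.37, combination 1.04) and MSMO1 by -2.05 (SE 0.511, limma adjusted p 0.0165) (sum 3.87, combination 1.82). CYP51A1 departed by -1.91 (SE 0.307, limma adjusted p 0.00261), MVD by -1.84 (SE 0.329, limma adjusted p 0.00406) and FDFT1 by -1.76 (SE 0.303, limma adjusted p 0.00348). PMVK, MVK and ACAT2 departed by -1.48, -1.46 and -1.42, with the combination mean below that of DMSO in each. For ACAT2 that difference from DMSO, -0.47 (SE 0.228, limma adjusted p 0.131), did not pass. Above the sum were INSIG2, by 1.54 (SE 0.348, limma adjusted p 0.0111), and HSD17B7, by 0.71 (SE 0.219, limma adjusted p 0.0365). SREBF1, MYLIP and HMGCS1 lay within 0.16 of the sum on the probes used, with 95% intervals of -0.55 to 0.56, -0.99 to 1.30 and -0.97 to 0.97. The second MYLIP probe gave 1.00, -0.35 and 1.53 with luteolin, gefitinib and both against DMSO. For MYLIP the place beside the sum thus depended on the probe.

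**Figure D4:**
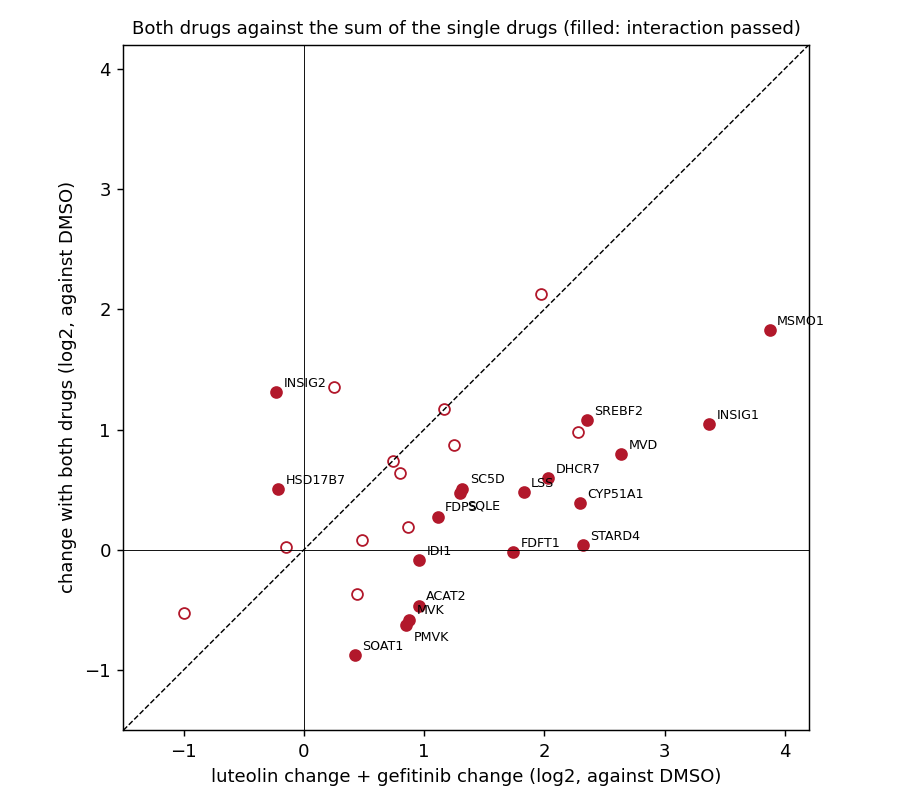
Change with both drugs (vertical axis) against the sum of the changes with luteolin and gefitinib (horizontal axis), log2 against DMSO, for the 31 genes. Filled and named points passed the interaction test, and 17 of these 19 lie below the dashed line where both are equal.

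The count of departures from the sum depended on single arrays, those of the single drugs as well as those of the control. Without DMSO replicate 1, 9 genes were below the sum and 1 above. Whichever array was left out, 10 of the 19 stayed past the threshold, among them STARD4, CYP51A1, MVD, FDFT1 and INSIG2, while INSIG1 lost it in 5 of 10 cases and SQLE in 9. With the treatments of the file names, 14 genes were below the sum and 5 above, and INSIG2 then lay at -3.15, below the sum.

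DMSO alone stood below 0 h for 25 of the 31 genes. The share above 0 h was 19.4% of the 31 genes and 46% of all genes tested. The median of DMSO minus 0 h was -0.31 over the 31 genes and -0.02 over all genes. Of the 31 genes 0 rose and 0 fell by limma at the adjusted p and 2-fold (0.0236% and 0.00944% of all genes). At an unadjusted limma p under 0.05, 9 were lower and 0 higher, where 711 and 585 of all 21179 genes tested were. INSIG1 was at -1.15 (SE 0.486, limma adjusted p 0.813) and HMGCS1 at -1.09 (SE 0.299, limma adjusted p 0.529), followed by MSMO1 at -0.72, CYP51A1 at -0.64, TMEM97 at -0.62 and STARD4 at -0.60. On the only slide that held both, the median of the 31 genes was -0.38.

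Against 0 h, 4 genes rose and 1 fell with luteolin (8% and 7.93% of all genes), 5 rose and 1 fell with gefitinib (15% and 14.5%), and 4 rose and 2 fell with both drugs (11.5% and 8.25%). MSMO1 rose in all 3, by 1.14, 1.29 and 1.10, and so did MYLIP on the probe used, by 1.14, 1.49 and 2.46. The second MYLIP probe gave -0.35 with gefitinib against DMSO. Over the alternative settings the MYLIP change with gefitinib against 0 h went as low as 0.59. NPC1 and ABCG1 also rose with luteolin, at 1.54 (SE 0.359, limma adjusted p 0.0143) and 1.10 (SE 0.28, limma adjusted p 0.0197), and TMEM97 fell by 2.23 (SE 0.172, limma adjusted p 0.00023). MVD, DHCR7 and SREBF2 also rose with gefitinib, and HMGCS1 fell by 1.25 (SE 0.299, limma adjusted p 0.00901). The fall of HMGCS1 depended on the probe: with the median over a gene's probes 4 genes rose and 0 fell with gefitinib. Its second probe gave 0.77 with gefitinib against DMSO. INSIG2 and ABCA1 also rose with both drugs, at 1.51 and 1.07, and TMEM97 and SOAT1 fell, at -1.14 and -1.13. These falls depended on the probe too, since the median over a gene's probes gave 5 rises and 0 falls with both drugs. SQLE, at 0.98 (SE 0.194, limma adjusted p 0.00719) with luteolin, and INSIG1, at 1.00 (SE 0.486, limma adjusted p 0.158), stayed under 2-fold above 0 h. The luteolin counts were unstable: without 0 h replicate 1 or without luteolin replicate 2, 0 rose and 1 fell, and without luteolin replicate 1 or either DMSO array 2 rose and 1 fell. With gefitinib, 2 rose and 1 fell without 0 h replicate 1, and 1 rose and 3 fell without gefitinib replicate 1. With both drugs, 2 rose without either 0 h array or either DMSO array, and 2 or 3 fell.

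Related genes outside the set were read from 5 lists, against DMSO. Of all genes, 7.03% rose and 6.18% fell with luteolin, 16.5% and 14.1% with gefitinib, and 12.1% and 7.5% with both. Of 15 measured genes of further sterol and isoprenoid steps, 0 rose and 2 fell with luteolin, 1 rose and 1 fell with gefitinib, and 0 rose and 1 fell with both. COQ2, which attaches the isoprenoid tail of ubiquinone, was lower at -1.03 (SE 0.223, limma adjusted p 0.0124) with luteolin and -1.14 (SE 0.223, limma adjusted p 0.00657) with both. Of 10 genes of sterol sensing and SREBP processing, 0 rose in any group, and 0, 2 and 1 fell with luteolin, gefitinib and both. Of 9 LXR receptors and other LXR targets, 1 rose with luteolin, 1 with gefitinib and 0 with both, and 0 fell.

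Of 21 genes of sterol transport and esters, 3 rose and 1 fell with luteolin (7.03% and 6.18% of all genes). With gefitinib 2 rose and 1 fell (16.5% and 14.1%), and with both 4 rose and 2 fell (12.1% and 7.5%). GRAMD1B, which carries cholesterol from the plasma membrane, rose by 1.87 (SE 0.225, limma adjusted p 0.00128) with luteolin and 1.20 (SE 0.225, limma adjusted p 0.0057) with both. CAV1, the caveolar coat protein that binds cholesterol, was lower at -2.01 (SE 0.165, limma adjusted p 0.000446) with luteolin and -1.02 (SE 0.165, limma adjusted p 0.00335) with both. ABCG4, a sterol exporter, rose by 1.53 (SE 0.537, limma adjusted p 0.0406) with gefitinib and 1.72 (SE 0.537, limma adjusted p 0.0344) with both. VLDLR, a lipoprotein receptor that MYLIP targets, rose by 1.56 (SE 0.32, limma adjusted p 0.00779) with both drugs and was called lower with gefitinib (limma adjusted p 0.0249). It was not well above background on either gefitinib array, so the size of that fall is uncertain. The means were -4.57 with DMSO and -5.61 with gefitinib. With gefitinib values raised to the lowest signal well above background on their array, VLDLR was 1.39-fold lower there than with DMSO. The limit of its own spot may differ.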

How the data were processed

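Per the labels, mRNA of PC-3 cells was hybridised to 10 single-color arrays, 2 in each of 5 groups, and samples were grouped by these labels. The authors deposited the scanner output of Agilent Feature Extraction (version 10.7.3.1 per the file headers), in which the intensity is Agilent's processed signal, linear and corrected for background and spatial trend, and arrays are not scaled to each other. The deposited table of values holds the same intensity for all 45015 spots of each array, within a relative tolerance of 1e-04, and 0 of its columns went unused.

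Spots were read with R 4.3.3 (package data.table, version 1.17.8). Control and outlier spots were left out, the spots of a probe were averaged, and log2 values were centred on each array's 75th percentile. Probes well above background (at least 50% of spots) on both arrays of at least 1 group were kept, 28774 of 41000. Symbols came from RefSeq accessions for 23958 probes and otherwise from the scanner files, whose coordinates are on hg18. The brightest probe stood for a gene. One limma 3.58.1 model of the 5 groups was fitted to all 10 arrays (5 residual and 3.36 prior degrees of freedom), with Benjamini-Hochberg adjustment over all probes kept. The interaction, the combined change less the single changes added together, was called at the adjusted p alone. Intervals cover 95%. Signal over background sets the depth, and 2 arrays per group limit the precision. The steps were tested on simulated data.

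The members, lists and tests were chosen with earlier results of these data known. Of the members, those called against DMSO or differing between drug groups are given with every array, and of the other lists only genes called against DMSO in at least 2 drug groups are named. No test was run over the set as a whole. Alternatives were quantile normalization, normexp (offset 50), no filter or a filter on all 10 arrays, the table of values, a block for replicate number or for slide, a fit of only the compared groups, treatments taken from file names, dropping the minimum fold, the median over a gene's probes, the methods' one-sample test against 0 h, and leaving out each array in turn. The lone array of a group is then assumed to vary like the others.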

Additional observations from a re-analysis of the deposited data

How the results depend on the processing

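Counts are given as rises and falls. Without a minimum fold the counts were 17 and 3 (20) with gefitinib and 10 and 4 (14) with both drugs against DMSO, 12 and 1 (13), 9 and 6 (15) and 8 and 7 (15) with luteolin, gefitinib and both against 0 h, 14 for luteolin against gefitinib, and 12 and 18 for both drugs against luteolin and against gefitinib. Quantile normalization gave 4 rises with gefitinib against DMSO. For luteolin against 0 h, no filter gave 3 calls and normexp 2. The methods' one-sample test against 0 h gave, unadjusted, 3, 2 and 2 calls with luteolin, gefitinib and both and 1 with DMSO, and 0 in all of these after Benjamini-Hochberg adjustment.

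With each array left out in turn, the calls against DMSO ranged from 4 to 12 with luteolin, 6 to 8 with gefitinib and 4 to 10 with both, those against 0 h from 1 to 5, 3 to 6 and 4 to 7, those of luteolin against gefitinib from 6 to 9, those of both drugs from 5 to 11 against luteolin and from 7 to 12 against gefitinib, and the interactions from 10 to 23. For DMSO against 0 h the count was 0 each time. Of the 24 calls against DMSO, 10 were lost without DMSO replicate 1 and 6 without luteolin replicate 2, and none changed sign.

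With the replicate block, the counts were 11, 8 and 7 against DMSO and 19 for the interaction, and 81 of 83 calls in all comparisons stayed. The calls added against DMSO were those of INSIG1 with gefitinib (1.23, limma adjusted p 0.00899) and with both drugs (1.04, limma adjusted p 0.0221). The arrays were not taken as pairs, since the labels tie no number to a culture or day: over 10 pairs of groups the correlation of same-numbered deviations ran from -0.10 to 0.29, above 0.1 in 6. With slide as a block 73 of the 83 calls stayed, with normexp 69, with quantile normalization 76 and with the table of values 83. When only 200 bases before the start were searched, CCAAT was in 60% of the windows (28% of all) and CACGTG in 11.4% (5.49% of all).

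With the treatments of the file names, 6 genes were called with luteolin and 11 with gefitinib against DMSO, and 31 of the 83 calls changed sign. Against DMSO these were IDI1 with luteolin (-0.085), INSIG2 with gefitinib (0.80), and ABCA1 (-0.60) and INSIG2 (-1.03) with both. Against 0 h they were ABCA1 (-0.87), INSIG2 (-0.84) and TMEM97 (0.0074) with both. For luteolin against gefitinib they were GGPS1 (-0.56), HMGCS1 (-0.16), IDI1 (-1.15), NPC1 (-0.79), SQLE (-1.09) and TMEM97 (1.09). For both against luteolin they were MVK (0.96), MYLIP (-0.97), SOAT1 (1.07) and STARD4 (0.85), and for both against gefitinib ABCA1 (-1.44), ACAT2 (0.78), HSD17B7 (-1.16), INSIG2 (-1.83), PMVK (0.44) and TMEM97 (2.24). The interaction turned for ACAT2 (1.24), DHCR7 (0.11), FDPS (0.42), HSD17B7 (-1.66), INSIG2 (-3.15), MVK (0.45), PMVK (1.07) and SOAT1 (0.84). This follows from the exchange of array pairs between treatments.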

Other observations

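The SREBP targets of fatty acid supply, a neighboring branch of 10 measured genes, had 2 rises with luteolin against DMSO (7.03% of all genes). There were 3 rises with gefitinib (16.5%), and 1 rise and 1 fall with both drugs (12.1% and 7.5%). SCD, the desaturase that makes oleate, rose by 1.32 (SE 0.208, limma adjusted p 0.00184) with gefitinib and 1.22 (SE 0.208, limma adjusted p 0.00406) with both drugs, and under 2-fold by 0.88 (SE 0.208, limma adjusted p 0.0174) with luteolin. ACSS2 and LPIN1, which activate acetate and make diacylglycerol, rose with luteolin by 1.24 (SE 0.223, limma adjusted p 0.00585) and 1.08 (SE 0.191, limma adjusted p 0.0056). FADS1 and FADS2, the desaturases of polyunsaturated fatty acids, rose with gefitinib by 1.29 (SE 0.298, limma adjusted p 0.00778) and 1.20 (SE 0.26, limma adjusted p 0.00603). ELOVL6, an elongase, fell by 1.06 (SE 0.277, limma adjusted p 0.0182) with both drugs. The change with both drugs lay below the sum of the single changes for 6 of the 10 and above it for 0 (15.8% and 17.8% of all genes). The median departure was -1.05 beside -0.17 over all genes tested. ACSS2, LPIN1, FADS1, FADS2 and ELOVL6 are named here after their values were seen.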
